A study of Mus musculus with 8 samples.

Results

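Of 1080 olfactory receptor genes that the arrays measured, 52 gave a signal well above background on every one of 8 arrays of islet RNA. They are described here among 22911 named genes in all. A gene entered the list when its symbol starts with Olfr and its probe with the highest mean over the arrays carried the scanner software's well-above-background mark 8 times. The members were thus selected on detection, which is given as a description. The genotype labels did not enter the choice, but the lowest marked signal was higher on the βFbln5KO arrays, as given below. A receptor dim on those arrays could thus drop out more readily, and the fold changes of the members carry that limit.

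The RNA came from islets of mice aged 11 weeks, with 150 islets in each extraction and 4 extractions per group. Control mice carried floxed Fbln5 alleles, and βFbln5KO mice carried the same alleles with Ins1-cre, in which the mouse insulin 1 promoter drives Cre, so that deletion is directed at β-cells and the other islet cells keep the gene. Each extraction was hybridised to 1 one-colour Agilent array of a single slide, with the control arrays in slide row 1 and the βFbln5KO arrays in slide row 2, and effects of the row cannot be told apart from those of the genotype. The mice behind each extraction are not given in the sources used here, and p-values measure only the spread between extractions.

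Olfactory receptors are G protein-coupled receptors that bind odorants, and each olfactory sensory neuron of the nose uses mainly a single receptor gene. In those neurons the receptor acts through the G protein subunit encoded by Gnal, adenylate cyclase 3 and a cyclic nucleotide-gated channel. The genes lie in clusters on many chromosomes, most have their whole coding sequence in a single exon, and some have been described outside the nose. Olfr544, a receptor for azelaic acid, has been studied in adipose tissue, liver and glucagon-secreting α-cells, and Olfr15 has been studied in β-cells as a receptor for octanoic acid.

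The sequences before the annotated starts of 4 members are shown because the results below turn on these genes: the 2 members known from outside the nose, Olfr544 and Olfr15, and the 2 with the highest correlation with the acinar markers over these arrays, Olfr319 and Olfr629. Each is the 250 bases before the annotated start in RefSeq on GRCm38.p6, read 5′ to 3′ on the gene's strand, and capitals mark the letters TAATTA or TATAAA on either strand.
Olfr544, chr7:102488308-102488557, minus strand: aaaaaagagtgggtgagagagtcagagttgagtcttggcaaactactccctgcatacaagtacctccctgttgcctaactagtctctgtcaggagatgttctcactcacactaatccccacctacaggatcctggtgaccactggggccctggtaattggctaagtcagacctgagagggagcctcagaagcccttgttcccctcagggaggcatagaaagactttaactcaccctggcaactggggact
Olfr15, chr16:3838725-3838974, plus strand: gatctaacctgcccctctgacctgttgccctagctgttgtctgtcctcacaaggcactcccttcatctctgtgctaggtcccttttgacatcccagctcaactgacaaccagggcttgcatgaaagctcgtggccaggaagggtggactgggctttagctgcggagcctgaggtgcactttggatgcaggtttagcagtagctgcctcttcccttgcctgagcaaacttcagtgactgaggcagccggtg
Olfr319, chr11:58701453-58701702, plus strand: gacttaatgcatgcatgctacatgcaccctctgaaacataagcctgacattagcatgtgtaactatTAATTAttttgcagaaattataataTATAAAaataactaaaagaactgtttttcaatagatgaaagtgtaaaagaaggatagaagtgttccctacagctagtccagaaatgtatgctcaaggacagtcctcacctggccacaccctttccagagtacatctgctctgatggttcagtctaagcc
Olfr629, chr7:103741323-103741572, minus strand: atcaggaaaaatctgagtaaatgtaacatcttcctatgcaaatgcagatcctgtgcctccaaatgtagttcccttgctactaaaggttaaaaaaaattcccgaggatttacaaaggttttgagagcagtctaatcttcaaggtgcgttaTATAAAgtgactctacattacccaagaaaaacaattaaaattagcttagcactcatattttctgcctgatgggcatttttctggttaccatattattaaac
The Olfr544 window holds 51.6% G and C and that of Olfr15 holds 56.0%, while those of Olfr319 and Olfr629 hold 37.6% and 34.8%. The models of Olfr544 and Olfr629 start before the start codon, and those of Olfr15 and Olfr319 start at it, so that the last pair of windows need not contain the promoter.

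Detection was rare in the family. The probe was above background on no array for 790 of the 1080 receptors (73.1%), on 1 array for 156 and on 7 arrays for 5. The 52 members make up 4.81% of the family, whereas 62.3% of the other named genes were detected on all 8 arrays. In the vomeronasal family Vmn1r, whose members are receptors of a second chemosensory organ in the nose, 9 of 168 genes (5.36%) were detected on every array. The related family Vmn2r had 0 of 90, the trace amine receptors (Taar) 0 of 14 and the bitter taste receptors (Tas2r) 2 of 35, Tas2r109 and Tas2r113. Of 308 negative control spots, which match no mouse RNA, between 1 and 15 were marked on an array and 0 on all 8.

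**Figure D1:**
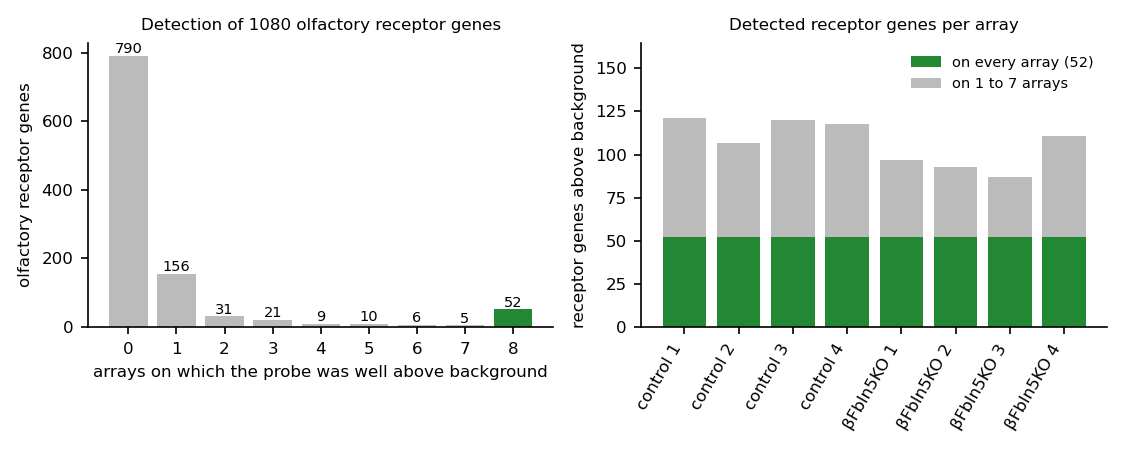
Left, the number of olfactory receptor genes (y axis) by the number of arrays on which their probe was well above background (x axis). Right, the detected receptor genes on each array, with the 52 members in green and the receptors detected on 1 to 7 arrays in grey, for 4 control and 4 βFbln5KO arrays. Most genes stand at 0 arrays, and the grey part is taller on the control arrays (55 to 69 genes) than on 3 of 4 βFbln5KO arrays (35 to 45), while replicate 4 has 59.

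Between 107 and 121 receptors were above background on a control array, and 97, 93, 87 and 111 on the βFbln5KO arrays. Over all non-control spots, 56.6% to 58.8% were above background on a control array. On the βFbln5KO arrays these shares were 52.6%, 52.8%, 53.6% and 56.6%. The lowest signal that still counted as well above background was itself higher on the βFbln5KO arrays, at −4.70 to −4.19 on the log2 scale used here, against −5.01 to −4.79 on the control arrays. Its part in the number of receptors detected was not tested. All signals are log2 values of the processed signal relative to the 75th percentile of all non-control spots on the same array, so that 0 is that percentile. Probes differ in brightness for the same amount of RNA, and signals are therefore compared between arrays and not between receptors.

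The members just inside the limit were Olfr960, Olfr1513 and Olfr100, whose dimmest array lay 0.11, 0.12 and 0.21 above the lowest detectable signal of that array. The receptors just outside were Olfr1347, Olfr187, Olfr906, Olfr224 and Olfr1564, each detected on all 4 control arrays and on 3 of 4 βFbln5KO arrays. Relative to the lowest detectable signal, the dimmest arrays of Olfr187 and Olfr906 lay 0.28 and 0.09 above it, so that it is no sharp limit. Those of Olfr1564, Olfr1347 and Olfr224 lay 0.47, 0.55 and 0.63 below it. For 19 members the signal came within 1 log2 unit of the lowest detectable signal on at least 1 array. None of the members' values was marked as an outlier spot, and 50 of the 52 genes are read by 1 probe each.

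The RNA had the makeup of islets, with all 8 β-cell, all 4 α-cell and all 3 δ-cell markers detected on every array. Markers of other cells were present too, and among them the 6 acinar markers differed most between arrays, with a log2 summed signal of 9.93 to 11.03 on the control arrays and 9.36 to 10.49 on the βFbln5KO arrays and a median log2 fold change of −0.84. No marker of any of these lists had an unadjusted limma p under 0.05. In bulk RNA, fewer cells of a type and less RNA per cell cannot be told apart. Fbln5, the targeted gene, had log2 signals of −1.70, −1.32, −2.05 and −1.83 on the control arrays and of −2.74, −2.40, −2.38 and −1.37 on those labelled βFbln5KO. The array labelled βFbln5KO replicate 4 lay within the control range. Its difference, βFbln5KO over control, was −0.50 (SE 0.29) in log2 with a limma adjusted p of 0.342. Without βFbln5KO replicate 4 it was −0.78 with a limma adjusted p of 0.0227, and without βFbln5KO replicate 1 it was −0.33. Replicate 4 is singled out here by its own Fbln5 signal, so the smaller p without it follows in part from that choice. The exon that the probe reads is not given in the sources used here.

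Both members known from other tissues were detected on every array. Of 18 receptors listed for this purpose, 17 were measured, and Olfr544 and Olfr15 were the ones found on all 8 arrays. Olfr558, a receptor related to the fatty acid receptor Olfr78, was found on 6 arrays, Olfr821 on 5 and Olfr78 on 4, and the other 12 on none, among them Olfr16, known from sperm. Olfr544 had log2 signals of 2.16, 2.00, 2.47 and 2.00 on the control arrays and of 1.99, 2.00, 1.93 and 1.75 on the βFbln5KO arrays. The groups overlapped narrowly, with control replicate 3 highest and βFbln5KO replicate 4 lowest. Its log2 fold change was −0.24 (SE 0.11), with a limma unadjusted p of 0.0564 and an adjusted p of 0.219, and without control replicate 3 the log2 fold change was −0.14. The unadjusted limma p was under 0.05 without control replicate 2, without control replicate 4 and with the replicate number as a block. Olfr15 had log2 signals of −2.21, −2.22, −2.44 and −2.40 in control and of −2.12, −2.47, −2.22 and −2.51 in βFbln5KO. The groups overlapped, with 1 βFbln5KO array above and 2 below all control arrays, and the log2 fold change was −0.01 (SE 0.13), smaller than the spread between arrays.

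The question put to all 52 members was whether their signal differed between βFbln5KO and control islets. By limma without adjustment, 5 members were lower in βFbln5KO islets (p under 0.05), namely Olfr930, Olfr1443, Olfr1263, Olfr6 and Olfr722, and 0 were higher. These 5 are 9.62% of the members, beside 5.42% of all 26612 probes well above background on all 8 arrays that were lower at the same threshold. Among such probes 0.853% were higher. Over all 56605 probes, most of the higher ones dim, 3.97% were lower and 20.7% higher. After Benjamini-Hochberg adjustment over all probes, 0 members passed in limma, beside 0.0106% of all probes and 0.00752% of those detected on every array. The methods' t-test at an unadjusted p under 0.05 gave 4 lower members and 0 higher, beside 4.07% and 0.541% of the probes detected on every array.

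The differences were small. The log2 fold changes of the members ran from −0.85 to 0.30, with a median of −0.12, beside a median of −0.025 over the probes detected on all arrays. Without the array labelled βFbln5KO replicate 4, whose Fbln5 signal lay in the control range, the members' median was −0.058, beside −0.028 over those probes. No member differed by more than 1 log2 unit, but the rule leaves out receptors unmarked on any array. Of the receptors just outside, Olfr1347 had a log2 fold change of −1.15 (SE 0.71), Olfr906 −0.65 (SE 0.23) and Olfr1564 −0.53 (SE 0.38). Olfr187 and Olfr224 were both at 0.09 (SE 0.28 and 0.58). The limma adjusted p of Olfr906 was 0.104. A log2 fold change below 0 was seen for 39 of the 52 members, beside 59.1% of the probes detected on all arrays. Among the 7378 such probes whose mean signal fell within the members' quartiles, 66.2% were below 0, 6.95% passed the same unadjusted threshold as lower, and the median was −0.072. The members also varied more between replicates, with a median SE of 0.163 against 0.109 over all probes detected on every array, and 0.157 within those quartiles.

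**Figure D2:**
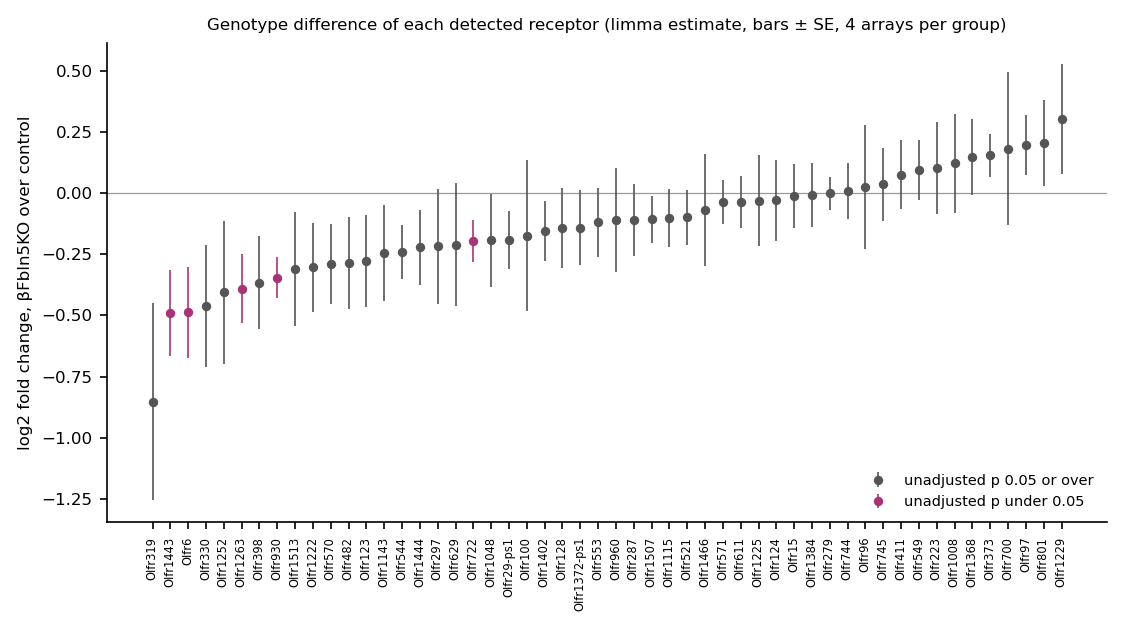
The log2 fold change of βFbln5KO over control (y axis) for each of the 52 members (x axis, ordered by value), as points with bars of ± 1 SE from limma over 4 arrays per group. The 5 members with an unadjusted p under 0.05 are in purple, all below 0, and Olfr319 at the left end has the widest bar.

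Olfr930, on chromosome 9, had the smallest limma p of the 52. Its log2 signals were −1.79, −1.74, −1.74 and −1.73 on the control arrays and −2.11, −2.16, −1.995 and −2.13 on the βFbln5KO arrays. All βFbln5KO arrays lay below all control arrays. The log2 fold change was −0.35 (SE 0.08), a control signal 1.27 times that in βFbln5KO, with a limma unadjusted p of 0.00269 and an adjusted p of 0.0728. The exact two-sided permutation test gave 0.0286, the smallest p that 4 arrays against 4 allow.

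Olfr1443, on chromosome 19, was the other member without overlap, at −2.26, −2.74, −2.81 and −2.92 in control and at −3.25, −3.25, −3.03 and −3.17 in βFbln5KO. Control replicate 1 stood highest, and the gap between the groups lay between control replicate 4 and βFbln5KO replicate 3. The log2 fold change was −0.49 (SE 0.17), with a limma adjusted p of 0.111. Groups that did not overlap, lower in βFbln5KO, were thus seen for 2 of the 52 members (3.85%), a share close to the 3.48% of all probes detected on every array (2.72% of all probes), and 0 members were higher without overlap, beside 0.661% of the probes detected on every array and 19.2% of all probes. The next receptor on the chromosome, Olfr1444, also a member, had a log2 fold change of −0.22 (SE 0.15) with overlapping groups.

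Olfr1263, on chromosome 2, had log2 signals of −1.66, −1.36, −1.88 and −1.55 in control and −2.08, −1.87, −1.82 and −2.24 in βFbln5KO. Control replicate 3 lay among the βFbln5KO arrays. The log2 fold change was −0.39 (SE 0.14), with a limma unadjusted p of 0.0225 and an adjusted p of 0.117. Olfr6, on chromosome 7, had log2 signals of −2.10, −2.76, −1.99 and −2.53 in control and −2.74, −2.87, −2.92 and −2.80 in βFbln5KO. Its βFbln5KO arrays lay close together, and control replicate 2 fell to their level. On the log2 scale the fold change was −0.49 (SE 0.18) with a limma adjusted p of 0.133. The unadjusted p of Olfr6 was no longer under 0.05 without control replicate 1 or 3 or βFbln5KO replicate 2 or 3, nor with the acinar sum as a covariate, a setting added after seeing the data and described with Olfr319. The unadjusted p of Olfr1263 was no longer under 0.05 without control replicate 2 or 4 or βFbln5KO replicate 1 or 4.

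Olfr722, on chromosome 14, had log2 signals of 1.98, 1.94, 2.27 and 2.08 in control and 1.93, 1.92, 1.94 and 1.69 in βFbln5KO. Replicates 1 to 3 of βFbln5KO lay at the lower edge of the control range, and the array labelled βFbln5KO replicate 4 stood below. The log2 fold change was −0.20 (SE 0.09), with a limma unadjusted p of 0.0495 and an adjusted p of 0.201. It lost its call under most other settings, among them eBayes without trend, a filter to detected probes, and the leaving out of control replicate 3 or 4 or of any βFbln5KO array, and the acinar covariate. Without control replicate 3 the log2 fold change was −0.13.

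**Figure D3:**
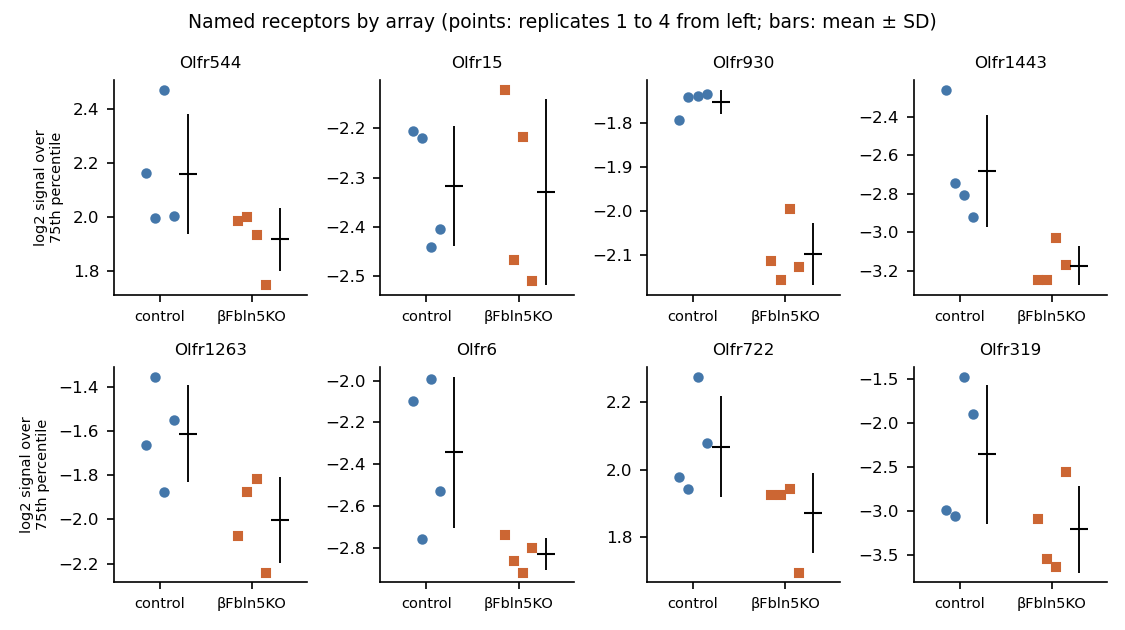
Log2 signal relative to the array's 75th percentile (y axis, its range differs between panels) of 8 members on the 4 control arrays (blue circles) and the 4 βFbln5KO arrays (orange squares), replicates 1 to 4 from left to right, with the mean ± SD in black. The groups are apart for Olfr930 and Olfr1443 and overlap for the other 6.

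Olfr319, on chromosome 11, had the largest fall in fold change of the 52 but did not pass the unadjusted threshold. Its log2 signals were −2.99, −3.05, −1.48 and −1.89 in control and −3.09, −3.54, −3.63 and −2.55 in βFbln5KO. The signal split the control arrays into replicates 3 and 4, which were high, and replicates 1 and 2, which were near the level of the βFbln5KO arrays. This gave a log2 fold change of −0.85 (SE 0.40) with a limma adjusted p of 0.238 and an exact two-sided permutation p of 0.114. Without control replicate 3 the log2 fold change was −0.56. The unadjusted limma p was under 0.05 with normexp, with the replicate number as a block, and without control replicate 1 or 2 or βFbln5KO replicate 4. Control replicates 3 and 4 were also the arrays with the highest sums of acinar markers, the digestive enzymes of exocrine cells.

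Over the 8 arrays, the signal of Olfr319 rose with the summed acinar markers, with Pearson's r = 0.974 (exact permutation p = 9.92e-05) and Spearman's rho = 0.952 (exact permutation p = 0.00114). This relation was noticed in these data and was then computed for all 52 members. The p was adjusted over the 26335 probes with a value on every array and well above background on all, without the acinar marker probes. Adjusted permutation p was 0.0344 for Pearson's r and 0.194 for Spearman's rho. Within the genotypes r was 0.992 in control and 0.992 in βFbln5KO, over 4 arrays each, and without the 2 arrays farthest from the median of the acinar sum it was 0.970. With the acinar sum as a covariate in limma, the log2 fold change of Olfr319 was −0.07 (SE 0.20). Whether acinar cells carry this RNA was not tested.

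Olfr629, in the large receptor cluster of chromosome 7, came next. Its log2 signals were −3.23, −3.43, −2.59 and −2.96 in control and −3.10, −3.74, −3.35 and −2.87 in βFbln5KO. The arrays labelled control replicate 3 and βFbln5KO replicate 4 were the brightest, and the groups overlapped, with a log2 fold change of −0.21 (SE 0.25). Pearson's r with the acinar sum was 0.907 (exact permutation p = 0.00208, adjusted over the same probes 0.236) and Spearman's rho 0.929 (exact permutation p = 0.00223, adjusted 0.273). It was 0.797 without the 2 farthest arrays, 0.971 within control and 0.906 within βFbln5KO. An r above 0.9 was reached by 2 of the 52 members, and by 161 of the 26335 probes (0.611%). At an unadjusted exact permutation p under 0.05 for Pearson's r, 7 of the 52 members (13.5%) were related to the acinar sum, beside 6.29% of the probes. The relation was positive for 3 of them, Olfr319, Olfr629 and Olfr398, and negative for 4, Olfr1229, Olfr97, Olfr373 and Olfr1368, and after adjustment over the probes Olfr319 alone passed, by Pearson's r.

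**Figure D4:**
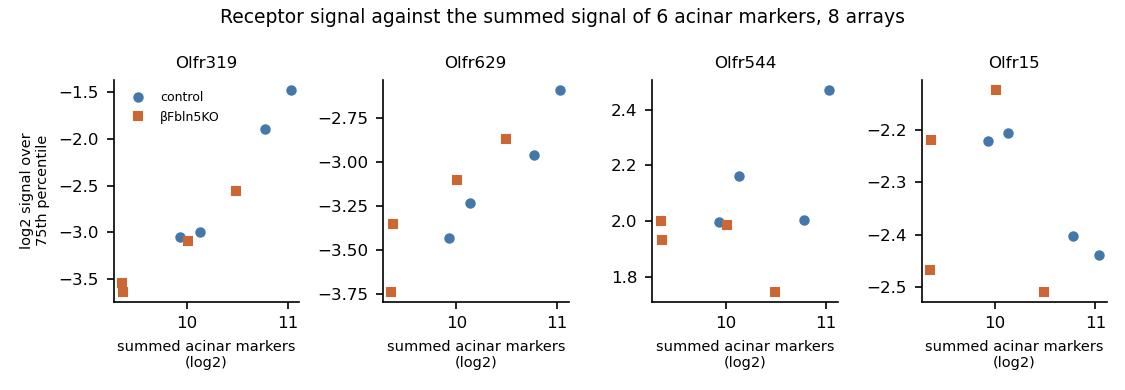
Log2 signal relative to the array's 75th percentile (y axis) of 4 members against the log2 sum of the signals of 6 acinar markers (x axis) on 8 arrays, control in blue circles and βFbln5KO in orange squares. Olfr319 and Olfr629 climb along the x axis in both genotypes, while Olfr544 and Olfr15 do not.

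The other members with the largest falls did not pass either. Olfr330, on chromosome 11, had a log2 fold change of −0.46 (SE 0.25), with control signals from −3.39 to −2.44 and βFbln5KO signals from −3.90 to −3.21, and of −0.27 without control replicate 1. Its gene overlaps Gm21927 in the annotation, so that its probe may not read it alone. Olfr1252, on chromosome 2, had log2 signals of −1.63, −2.40, −0.88 and −2.17 in control and −2.25, −2.03, −2.24 and −2.19 in βFbln5KO. Its control arrays were spread over more than 1 log2 unit around the tight βFbln5KO arrays, and the log2 fold change was −0.41 (SE 0.29). It was −0.11 without control replicate 3 and −0.62 without control replicate 2.

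No rise passed the test. Olfr1229, on chromosome 2, had the largest, a log2 fold change of 0.30 (SE 0.22) with a limma adjusted p of 0.493. Its log2 signals were −1.28, −1.41, −1.63 and −1.70 in control and −1.40, −0.49, −1.35 and −1.57 in βFbln5KO, so that replicate 2 of βFbln5KO stood above and the others lay in the control range. Without that array the log2 fold change was 0.064. Its r with the acinar sum was −0.75, and with that sum as a covariate its log2 fold change was −0.0072.

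Olfr97, on chromosome 17, had log2 signals of 1.77, 1.90, 1.51 and 1.85 in control and 2.10, 1.97, 2.12 and 1.64 in βFbln5KO. Replicate 4 of βFbln5KO was the lowest of its group and lay in the control range, and the log2 fold change was 0.20 (SE 0.12), or 0.12 without control replicate 3 and 0.30 without βFbln5KO replicate 4. Its r with the acinar sum was −0.79, and with that sum as a covariate the log2 fold change was 0.02 (SE 0.12). Without βFbln5KO replicate 4, Olfr97 and Olfr373 passed the unadjusted threshold in limma as higher, beside 1.11% of the probes detected on every array. Olfr373, on chromosome 8, had a log2 fold change of 0.15 (SE 0.09), with control signals from −0.51 to −0.27 and βFbln5KO signals from −0.43 to −0.10, and its r with the acinar sum was −0.74 and its log2 fold change with the covariate 0.06 (SE 0.10). Olfr801, on chromosome 10, had a log2 fold change of 0.20 (SE 0.18) and Olfr700, on chromosome 7, one of 0.18 (SE 0.31), both with overlapping groups.

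The members came from 14 of the chromosomes that carry measured receptor genes. Chromosome 7 held 12 of 233 measured receptors, chromosome 2 held 9 of 278, chromosome 11 held 7 of 80, chromosome 17 held 6 of 50 and chromosome 14 held 5 of 39. Chromosomes 1 and 6, with 27 measured receptors each, and chromosome X, with 6, held 0. When receptor genes within 1 Mb of each other were joined, 65 clusters resulted, and 21 of the 50 with a measured receptor held a member. The share of measured genes that were members was 4.21% in the largest cluster, on chromosome 2 (9 of 214), and 13.9% in a cluster on chromosome 14 (5 of 36).

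The class I receptors, a branch of the family shared with fishes, lie in 1 cluster on chromosome 7. Of its 121 measured genes 7 were members, Olfr544, Olfr549, Olfr553, Olfr570, Olfr571, Olfr611 and Olfr629. Their log2 fold changes lay between −0.29 (Olfr570) and 0.09 (Olfr549), and none was called. Olfr571 had log2 signals of 1.91, 1.84, 2.09 and 1.88 in control and 1.84, 2.10, 1.93 and 1.71 in βFbln5KO. The groups overlapped throughout, with a log2 fold change of −0.04 (SE 0.09). Olfr570, its direct neighbour, had control signals from −3.07 to −2.58 and βFbln5KO signals from −3.32 to −2.99, with a log2 fold change of −0.29 (SE 0.16).

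On chromosome 14 the members included Olfr1507, better known as MOR28, a receptor used in work on how a neuron chooses its receptor gene. Its log2 signals were 5.35, 5.30, 5.14 and 5.45 in control and 5.31, 5.33, 5.18 and 4.99 in βFbln5KO. The groups overlapped, the array labelled βFbln5KO replicate 4 was lowest, and the log2 fold change was −0.11 (SE 0.10). The annotated span of the T cell receptor locus Tcra overlaps this gene. Olfr744, with log2 signals from 0.02 to 0.54 in control and 0.17 to 0.49 in βFbln5KO, and its neighbour Olfr745, from −2.62 to −2.16 and −2.60 to −2.17, had log2 fold changes of 0.01 (SE 0.12) and 0.04 (SE 0.15). Olfr1513 stood lower in βFbln5KO by a log2 fold change of −0.31 (SE 0.23), with overlap.

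The 6 members on chromosome 17 were Olfr100, Olfr96, Olfr97, Olfr123, Olfr124 and Olfr128. Their log2 fold changes ran from −0.28 (Olfr123) to 0.20 (Olfr97), and none was called. On chromosome 11, apart from Olfr319 and Olfr330, the values were −0.37 for Olfr398 (SE 0.19), −0.14 for the pseudogene Olfr1372-ps1, −0.01 for Olfr1384, 0.07 for Olfr411 and 0.10 for Olfr223. On chromosome 2, 7 of 9 members had a log2 fold change below 0, and Olfr1222, at −0.30 (SE 0.18), followed Olfr1252 and Olfr1263. The remaining members, on chromosomes 3, 4, 13, 15 and 19 and elsewhere on chromosomes 7 and 9, were not called and lay between −0.29 (Olfr482) and 0.15 (Olfr1368).

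**Figure D5:**
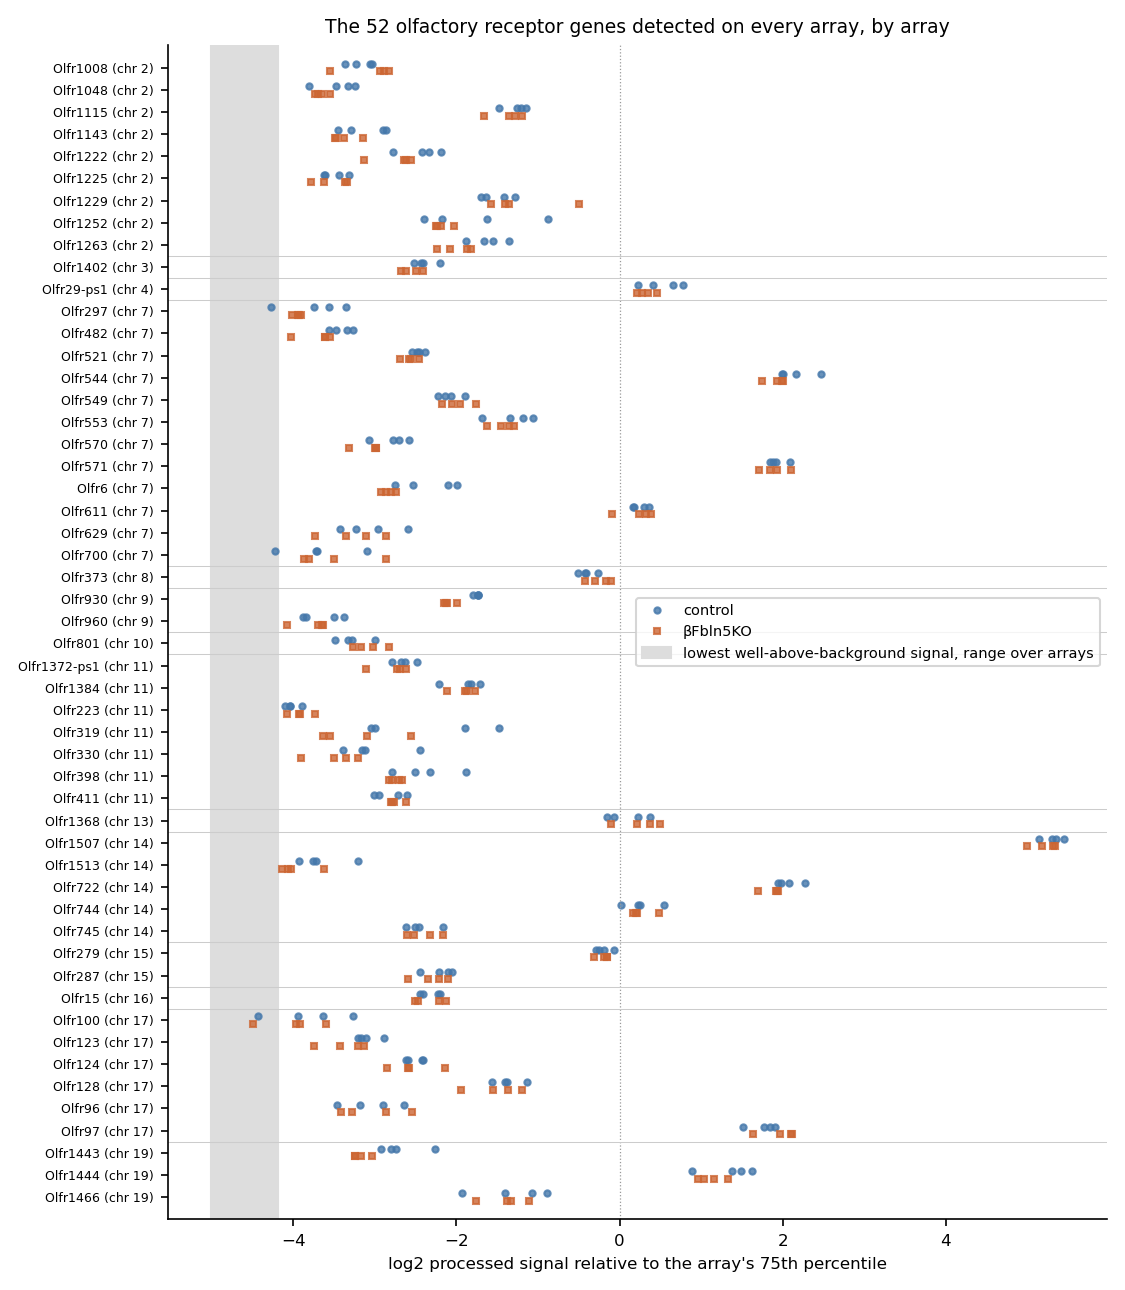
Log2 signal relative to the array's 75th percentile (x axis) of all 52 members (y axis, by chromosome) on the 4 control arrays (blue circles) and the 4 βFbln5KO arrays (orange squares). The grey band spans the lowest well-above-background signals of the 8 arrays, from −5.01 to −4.19; each value in it is above its own array's limit. The groups overlap for every member except Olfr930 and Olfr1443.

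Of the 52 members, 10 had another member as the next receptor gene, in the pairs Olfr96 and Olfr97, Olfr123 and Olfr124, Olfr570 and Olfr571, Olfr744 and Olfr745, and Olfr1443 and Olfr1444. Of the 83 measured receptors next to a member these 10 are 12.0%, beside the members' share of 4.81% in the measured family. Among the other 73, 55 (75.3%) were above background on no array, beside 76.8% of all 1028 measured receptors that are no members. The nearest measured protein-coding gene that is no receptor was detected on all 8 arrays for 33 of the 52 (63.5%), beside 62.3% of the named genes other than receptors. The annotated model covered little more than the coding sequence for 33 members, with a span of at most 1000 bases that is a multiple of 3. Of the members 2 are annotated as pseudogenes, Olfr29-ps1 and Olfr1372-ps1. Probe sequences were not used here, so that reads from near-identical receptors cannot be set apart.

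The 2 genes with several probes gave mixed readings. For Olfr1115 the second probe was above background on no array, with control signals from −7.08 to −6.87 and βFbln5KO signals from −6.80 to −6.27, so that it stood higher in βFbln5KO without overlap, as did 19.2% of all probes. The first probe had control signals from −1.47 to −1.14 and βFbln5KO signals from −1.66 to −1.20, with a log2 fold change of −0.10 (SE 0.12). For Olfr1372-ps1 the second probe was above background on 3 control arrays and no βFbln5KO array, with control signals from −4.76 to −4.14 and βFbln5KO signals from −5.04 to −4.51. The first probe had a log2 fold change of −0.14 (SE 0.15), and the groups overlapped for both probes.

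A window before the annotated start was given for 42 of the 52 members. In these windows of 300 bases, which run from 250 bases before the start to 50 after it, the letters TAATTA, the core bound by homeodomain proteins such as Lhx2, were found on either strand in 6 (14.3%). All receptor windows held it in 18.6% and the windows of all genes in 5.29%. The letters TATAAA, the TATA box, stood in 16 member windows (38.1%), in 41.0% of receptor windows and in 13.6% of all. A palindromic site of the Ebf factors stood in 1 member window, that of Olfr96 (2.38%), beside 0.527% of receptor windows and 0.904% of all. The cyclic AMP response element TGACGTCA stood in 0 member windows, 0.105% of receptor windows and 1.79% of all. TAATTA and TATAAA can overlap with each other or with themselves. The model starts at the start codon for 29 of the 42 members, and their windows may lie apart from the true promoter.

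The bases G and C made up a median of 36.0% of the 250 bases before the start of the members, 33.6% in the other receptors and 52.4% over all windows. More than 50% were found for 4 of the 42 members, Olfr15, Olfr373, Olfr544 and Olfr1513 (9.52%), and for 1.77% of the other receptor windows. Both receptors known from outside the nose are among these 4. The 4 genes had log2 fold changes of −0.01, 0.15, −0.24 and −0.31, and none was called.

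The genes that serve the receptors in the nose were detected in part. Of 29 genes of olfactory signalling and of its neurons, 16 were above background on all 8 arrays, 7 on some and 6 on none. Among the named genes other than receptors, 62.3% were above background on all 8 arrays and 22.5% on none. Gnal, the G protein subunit that couples to the receptors, had log2 signals of −2.41 ± 0.24 in control and −2.44 ± 0.34 in βFbln5KO (SD, n = 4). Ric8b, an exchange factor for that subunit, had 1.85 ± 0.18 and 1.97 ± 0.22, and Rtp2, a transporter of receptors to the cell surface, −0.65 ± 0.18 and −0.68 ± 0.35 (SD, n = 4). These 3 were present in both groups without a difference beyond the spread between arrays.

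Other defining genes of the neurons were above background on some arrays or on none. Adcy3, the adenylate cyclase of the pathway, Cnga4, a channel subunit, Ano2, the chloride channel, Slc24a4, Ebf2 and Lhx2 were above background on no array. Cnga2, the main channel subunit, was detected on 6 arrays, Omp, the olfactory marker protein, on 5, and Rtp1 and Stoml3 on 2 each. Of the 11 markers of olfactory sensory neurons, 5 were detected on all arrays, 4 on some and 2 on none. The shares over the named genes other than receptors were 62.3% on all arrays and 22.5% on none. The summed log2 signal of the 11 markers lay between 0.32 and 0.86 in control and 0.45 and 0.94 in βFbln5KO. Gng13, a G protein subunit, had the largest difference among the genes of the pathway detected on all arrays, with a log2 fold change of 0.56 (SE 0.28) and a limma adjusted p of 0.263. At an unadjusted p under 0.05, 0 of the 29 genes were lower and 2 were higher, Ano2 and Lhx2, whose probes were dim on all arrays, beside the 3.97% and 20.7% of all probes given above. After adjustment 0 of the 29 passed. The negative control spots had median log2 signals of −7.14 to −6.90 on the control arrays and of −6.82 to −6.31 on the βFbln5KO arrays.

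The members lay all over the array. Their spots ranged from row 1 to row 379 of 384, with 1 member (Olfr1008) in the first 16 rows and 3 in the last 16, beside 4.31% and 4.15% of all probes. Without the outer 16 rows at either edge, 48 members remained, and by the unadjusted limma threshold the same 5 were lower and 0 higher, beside 5.46% and 0.753% of the probes detected on every array.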

How the data were processed

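Islet RNA from 4 control and 4 βFbln5KO extractions was measured. The authors deposited, per array, scanner output of Agilent Feature Extraction 11.0.1.1 (the version per the submitters' processing notes), whose processed signal is a background-subtracted and spatially detrended intensity. The authors also deposited a table of values, of which 99.8% to 99.9% per array lay within 0.01% of the processed signal over a constant of that array. A genome build for the probes was not used here. Processed signals were put on the log2 scale, each array's 75th percentile (709 to 1055) was subtracted, outlier-marked values were left out (0.356%), and spots of a probe were averaged. Probes (32994 of 56605) were named through RefSeq accessions. Groups were compared with limma 3.58.1 (lmFit, eBayes with trend) in R 4.3.3, adjusted over all probes. The script was tested on simulated data. Intensities give no depth, and the number of arrays limits the precision. Plots came from matplotlib 3.10.9 (Python 3.11.15).

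The members and gene lists were chosen with earlier results of these data known. The receptors given singly were those with an unadjusted p under 0.05, the 5 largest rises and falls, those known outside the nose, those in the study's lists of top genes (none was a member) and those with several probes. Olfr629, Olfr571, Olfr570, Olfr1507, Olfr744 and some others were added after their values were seen. The columns of the authors' own comparisons were not used. Alternatives were normexp (offset 50), quantile normalization, filters on dim probes, a common floor, eBayes without trend, outlier-marked spots kept, the deposited table, the methods' t-test, another percentile, other probe choices, the replicate number as a block, each array left out, the outer 16 rows left out and, added later, the acinar covariate.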

Additional observations from a re-analysis of the deposited data

Results flagged for a closer look

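In 8 of 106 groups of 4 arrays (each member and Fbln5 in each genotype), 1 array stood apart from the other 3 by Dixon's test at its 95% critical value, and chance alone flags about 1 in 20. Olfr722 was at 1.69 on the array labelled βFbln5KO replicate 4, with the others at 1.92 to 1.94. On the same array Olfr1222 was at −3.13 (others −2.64 to −2.56) and Olfr482 at −4.02 (others −3.61 to −3.55). On βFbln5KO replicate 1, Olfr570 was at −3.32 (others −3.00 to −2.99) and Olfr960 at −4.08 (others −3.70 to −3.63). Olfr744 was at 0.49 on βFbln5KO replicate 2 (others 0.17 to 0.21), and Olfr1008 at −3.55 on βFbln5KO replicate 3 (others −2.93 to −2.82). Olfr930 was at −1.79 on control replicate 1 (others −1.74 to −1.73), and this array lay nearer to the βFbln5KO arrays than the other control arrays did.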

How the results depend on the processing

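The number of lower members at an unadjusted limma p under 0.05 was 4 to 7 under the settings that kept all arrays, beside 4.57% to 6.13% of the probes detected on every array. Under these settings 0 were higher, beside 0.462% to 1.499%. With arrays left out in turn the number lower ranged from 3 (without βFbln5KO replicate 1, 2 or 3) to 8 (without control replicate 2). Of those probes 3.59% (without βFbln5KO replicate 4) to 7.03% (without control replicate 2) were lower. The number higher ranged from 0 to 2 (without βFbln5KO replicate 4), beside 0.733% to 1.38%. Olfr930 and Olfr1443 were among the lower members under all 22 alternatives. The number lower after adjustment was 1 with eBayes without trend (Olfr930, adjusted p = 0.0498) and 0 to 1 with arrays left out, where Olfr930 had an adjusted p of 0.0300 without βFbln5KO replicate 4; under the other alternatives it was 0. The limma adjusted p of Fbln5 was 0.0227 without that array, which is singled out by its Fbln5 signal. With arrays left out, the log2 fold change of Fbln5 ranged from −0.78 to −0.33. The members' median log2 fold change ran from −0.155 with the acinar covariate to −0.058 without βFbln5KO replicate 4. Required on at least 4 arrays, detection gave 82 receptors, and on at least 1 array 290.

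Olfr15 had log2 fold changes of 0.00023 with normexp, 0.023 with quantile normalization and −0.081 to 0.048 with arrays left out, and Olfr700 −0.034 (without βFbln5KO replicate 2) to 0.38 (without control replicate 3). With arrays left out, Olfr801 ranged from 0.12 to 0.30, Olfr1115 from −0.17 to −0.0076 and Olfr1372-ps1 from −0.20 to −0.032. Olfr1115 was at 0.20 by the median of its probes, which takes in the probe not above background on any array. Olfr1229 was at −0.0072 with the acinar covariate. The cause of the other changes was not tested. With the replicate block 7 members were lower, adding Olfr544 and Olfr319, beside 5.60% of the probes detected on every array; deviations of arrays with the same number correlated at 0.20, 0.30, −0.22 and −0.02, so the numbers do not pair the arrays. The deposited table held 51 members. Gene names from the scanner output itself were not run.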
